A study of Mus musculus with 9 samples.

Results

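Imprinted genes are transcribed mainly from the copy inherited from 1 parent, because a methylation mark laid down in the egg or the sperm persists in the body's cells and tells the 2 copies apart. They lie in clusters, each under a control region that often also gives rise to a long noncoding RNA. Many of them act on growth before and after birth, and fibroblasts of the embryo transcribe a good part of them. Here 40 imprinted mouse genes, taken as a list of symbols, were found by their Ensembl identifiers in a table of 52661 gene rows, and all 40 had a row. Of these, 13 are known as maternally expressed and 22 as paternally expressed, and the rest (Gnas, Blcap, H13, Inpp5f and Trappc9) are imprinted only for some transcripts or in brain. A filter on low counts left 36 of them for testing, and Rtl1, Phlda2, Ascl2 and Magel2 fell below it.

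The values come from RNA sequencing of immortalised mouse embryonic fibroblasts, a connective tissue culture, from the C57BL/6 strain and made to grow indefinitely with T/t antigen. There were 3 libraries of wild type cells, 3 of cells labelled Ctr1 -/-, whose titles read FloxedCtr1 and which are called Ctr1-null here, and 3 of the Ctr1-null cells given bathocuproine disulfonate (BCS), a copper chelator, at 500 µM for 48 hours by the sample labels (the series record puts the same figure in mM). Ctr1, encoded by Slc31a1, is the copper importer of the cell surface, so by design the 3 groups step down in access to copper. The counts do not measure copper itself. All cells grew in a defined medium with EGF and FGF-2. The labels do not say whether replicates were separate cultures or whether the wild type and null cells are of 1 origin, so p-values measure the spread between these libraries, and genotype and cell line cannot be told apart. The counts add up both parental copies, so they show how much RNA an imprinted gene made and not from which copy.

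Library totals ran from 38962036 to 57206337 counts. On these raw totals 3 counts, the limit that a count of 0 allows, were 0.0524 to 0.0770 CPM (a gene's counts scaled to a common library total), for counting error only. All other CPM values use totals rescaled between libraries, so this limit is approximate for them. Slc31a1 was at 56.1, 54.8 and 54.9 CPM in the wild type libraries and at 1.40 to 3.88 CPM in the 6 null libraries, so the genotype labels held. It did not tell null libraries with BCS from those without (log2 fold change -0.07 ± 0.32, edgeR adjusted p = 0.951), so the BCS labels were not checked by it. Fibroblast markers summed to between 15470 and 19850 CPM in every library. Wild type replicate 1 stood apart from wild type replicates 2 and 3 in many genes. For that reason most values are given for each wild type library on its own. Counts of called genes are given with and without replicate 1, and so are members whose call it changed. That library was singled out by its values, and without it the wild type group holds only replicates 2 and 3. Errors and calls without it therefore describe how the fit depends on 1 library and are not further support. Tests are edgeR's quasi-likelihood test over 18408 genes, 2-sided, with Benjamini-Hochberg adjustment over all of them, and a gene counts as called, or as having risen or fallen, at an adjusted p under 0.05. Fold changes are log2 values with their standard error (SE).

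The Dlk1-Dio3 cluster on chromosome 12 carries 3 long noncoding RNAs made from the maternal copy, Meg3, Rian and Mirg, and the protein genes Dlk1 and Rtl1 made from the paternal copy. Meg3 (GRCm38 chromosome 12, 109541001 to 109571726, + strand) gave 38.9 CPM in the first wild type replicate but 1.59 and 2.04 CPM in the other two. In Ctr1-null cells it was at 19.8, 37.8 and 61.3 CPM, and with BCS at 33.5, 28.7 and 57.1 CPM. Wild type replicate 1 thus lay inside the range of the 6 null libraries, while the other wild type libraries lay far below it. Rian (109603940 to 109661716), the host of C/D box small nucleolar RNAs, was at 38.4, 2.51 and 2.31 CPM in wild type, at 25.9, 34.2 and 57.6 CPM in Ctr1-null and at 28.3, 23.9 and 45.7 CPM with BCS. Mirg (109729764 to 109749460), a host of microRNAs, had 69, 2 and 2 counts in wild type against 48 to 118 in the null libraries.

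The paternal genes of the cluster lay in the same order as the maternal ones. Dlk1 (109452823 to 109463336), a membrane protein that holds back fat cell formation, had 65, 1 and 5 counts in wild type, 63, 34 and 106 in Ctr1-null and 64, 87 and 85 with BCS. Rtl1, a retrotransposon-derived protein of placenta and muscle, had 8, 1 and 1 counts in wild type and 3 to 10 in the null libraries, below the filter. A maternal transcript runs on the other strand of Rtl1. The library kit does not mark strand, so these few counts cannot be assigned to either. Dio3, the thyroid hormone-inactivating enzyme at the far end of the cluster and not among the 40, was at 8.90, 2.70 and 2.58 CPM in wild type and at 5.27 to 16.4 CPM in the null libraries. Begain, beyond the other end, was at 1.43, 0.324 and 0.427 CPM in wild type and at 1.13 to 2.48 CPM in the null libraries. In each of these genes wild type replicates 2 and 3 were below the 7 other libraries, for Rtl1 by a few counts.

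With all 9 libraries no member of the Dlk1-Dio3 cluster was called. Meg3 had a log2 fold change of 1.48 ± 0.98 in Ctr1-null against wild type (edgeR adjusted p = 0.452) and of 1.48 ± 0.98 with BCS against wild type (0.324). Without wild type replicate 1 it was 4.42 ± 0.55 in both comparisons (adjusted p = 0.0017 and 0.00107), and Rian was 4.03 ± 0.43 and 3.75 ± 0.43 (0.00104 and 0.000799). Mirg and Dlk1 were then called as higher too, but against wild type libraries of 1 to 5 counts, so no fold is given for them. BCS against Ctr1-null moved none of the 4 genes tested, with Meg3 at 0.01 ± 0.95 (adjusted p = 0.999). Less RNA per cell and fewer cells that make it cannot be told apart in such bulk libraries.

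The start of Meg3 is where the maternal RNAs begin, and the 250 bases before it are shown because Meg3, Rian and Mirg moved together. They are from RefSeq (GRCm38.p6), chr12:109540746-109540995, + strand, 5′ to 3′, and capitals mark a TGCCGC hexamer on the other strand, the core bound by the imprint keeper ZFP57, and a TGACGTCA, the palindromic cAMP response element.
Meg3 upstream: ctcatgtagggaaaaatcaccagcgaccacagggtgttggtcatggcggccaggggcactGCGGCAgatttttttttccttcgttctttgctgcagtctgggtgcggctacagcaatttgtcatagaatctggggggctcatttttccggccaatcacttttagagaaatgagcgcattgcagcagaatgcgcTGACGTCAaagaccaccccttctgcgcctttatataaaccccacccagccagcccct
RefSeq windows of 300 bases (250 before to 50 after a start) were used for 32 of the 40 members, 49 windows in all. Impact was not searched, as its chromosome was left out for members, though not from the count over all genes. The hexamer, read on both strands, was in 11 of these windows, of Grb10, Igf2, Mcts2, Meg3, Mest, Nap1l5, Nnat, Plagl1, Snrpn and Zim1, and in 11.6% of 32851 windows over all genes. Windows can overlap, and those of Mest among the 11 hold the same hexamers. The cAMP response element was in 3 member windows, of Meg3, Peg3 and Usp29, and in 1.79% of all windows. Peg3 and Usp29 were counted for the same element. The core of YY1, another factor tied to imprinted control regions (GCCATNTT, both strands, no overlap with the other motifs), was in 1 member window, of Slc38a4, and in 6.05% of all. These are matches of letters in short windows, and member windows had a median of 12 CpG against 7 over all.

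Several members are hosts of microRNAs. The RefSeq table lists 29 hairpin sequences within 8 gene spans, of which 14 lie in Mirg, 7 in Rtl1, 3 in Rian and 1 each in Meg3, H19, Igf2, Usp29 and Mest. The span of Impact was not searched. In Rtl1, 6 of the 7 are on the strand opposite to Rtl1, as a maternal transcript runs there against the paternal gene. Of mmu-miR-1906, also in Meg3, only the mature form was used. MicroRNAs themselves were not measured. The mature RefSeq sequences of hosts that the results turn on are given 5′ to 3′, with the seed (bases 2 to 8) in capitals.
mmu-miR-770-5p, in Meg3: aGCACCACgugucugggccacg
mmu-miR-370-3p, in Rian: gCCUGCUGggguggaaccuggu
mmu-miR-134-5p, in Mirg: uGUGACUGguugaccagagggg
mmu-miR-453, in Mirg: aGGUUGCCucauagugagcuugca
mmu-miR-496a-5p, in Mirg: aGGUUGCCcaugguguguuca
mmu-miR-127-3p, opposite to Rtl1: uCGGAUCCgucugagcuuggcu
mmu-miR-675-5p, in H19: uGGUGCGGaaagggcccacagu
mmu-miR-483-3p, in Igf2: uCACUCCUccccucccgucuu
mmu-miR-335-5p, in Mest: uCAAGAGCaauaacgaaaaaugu
The 56 mature forms in these spans carry 55 different seeds, and the shared one, GGUUGCC, is that of mmu-miR-453 and mmu-miR-496a-5p.

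**Figure D1:**
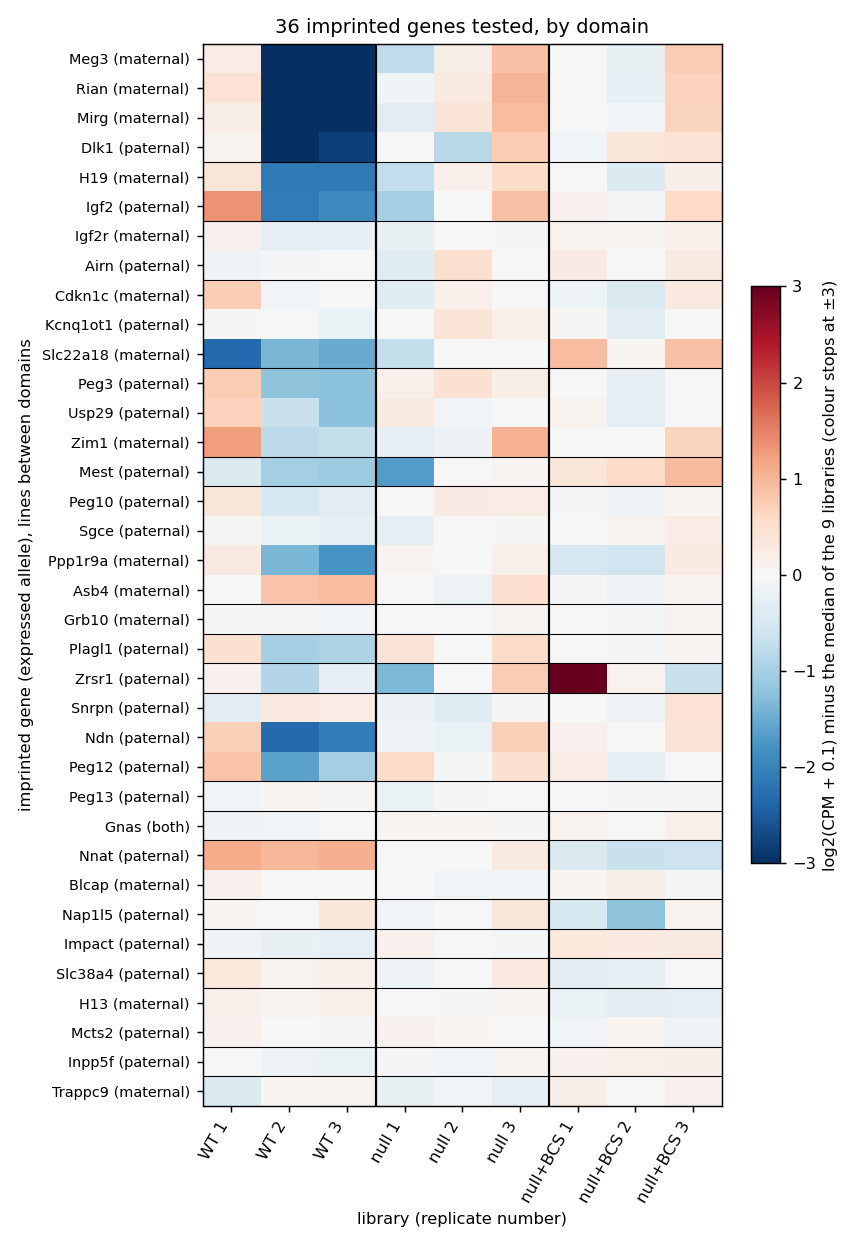
Heat map of the 36 imprinted genes tested (rows, in domain order, with the copy known to be expressed) in the 9 libraries (columns), coloured by log2(CPM + 0.1) minus the gene's median over the 9 libraries. Wild type replicates 2 and 3 share a block of low values from Meg3 to Igf2 and at Peg3, Plagl1, Ndn and Peg12, and Zrsr1 stands out in replicate 1 with BCS.

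The Igf2-H19 pair on chromosome 7 holds the fetal growth factor Igf2, made from the paternal copy, and the noncoding RNA H19, made from the maternal copy. H19 (142575529 to 142578143, - strand) was at 145, 26.1 and 26.1 CPM in wild type, at 68.1, 127 and 166 CPM in Ctr1-null and at 113, 85.5 and 130.1 CPM with BCS. Igf2 (142650766 to 142666816, - strand) was at 12.9, 1.11 and 1.28 CPM in wild type, at 2.50, 5.06 and 9.31 CPM in Ctr1-null and at 5.50, 4.90 and 7.71 CPM with BCS. Wild type replicate 1 was the highest of all 9 libraries for Igf2, and wild type replicates 2 and 3 were the lowest for both genes. H19 had a log2 fold change of 0.87 ± 0.61 in Ctr1-null against wild type (edgeR adjusted p = 0.482) and Igf2 of 0.13 ± 0.83 (0.946), and without wild type replicate 1 they had 2.20 ± 0.34 (0.00383) and 2.22 ± 0.50 (0.0182). In BCS against wild type they had 0.73 ± 0.61 (0.44) and 0.23 ± 0.83 (0.874) with that library, and 2.06 ± 0.33 (0.0028) and 2.32 ± 0.50 (0.00908) without it. BCS against Ctr1-null gave -0.13 ± 0.61 for H19 and 0.10 ± 0.82 for Igf2, neither called (adjusted p = 0.949 and 0.972).

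The receptors and brakes of IGF2 among the members were steadier. Igf2r, the maternally expressed receptor that clears IGF2, was at 384, 294 and 297 CPM in wild type, at 305, 354 and 338 CPM in Ctr1-null and at 379.8, 372 and 394 CPM with BCS. Airn, the paternal antisense RNA that silences Igf2r in cis, was at 2.16 to 3.93 CPM in all 9 libraries. The library kit does not mark strand, so reads from the stretch that Igf2r and Airn share cannot be told apart. Grb10, an adaptor that restrains the insulin and IGF receptors, stayed between 441 and 508 CPM in all 9 libraries, and neither it nor Airn was called in any comparison. Igf2r was not called with all libraries (0.23 ± 0.11 with BCS against wild type, edgeR adjusted p = 0.179) and was called without wild type replicate 1 (0.36 ± 0.08, 0.01). Plagl1, a zinc finger factor whose targets include other imprinted genes, was at 37.2, 13.7 and 14.4 CPM in wild type, at 35.8, 27.3 and 40.8 CPM in Ctr1-null and at 27.3, 26.2 and 28.4 CPM with BCS. It was called as higher in Ctr1-null (1.30 ± 0.15, edgeR adjusted p = 0.0014) and with BCS (0.95 ± 0.15, 0.00252) only when wild type replicate 1 was left out.

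Of 16 genes of the wider IGF axis that are not members, 15 were tested, and with BCS against wild type 3 fell and none rose, where 15.8% of all genes were called. Igf2bp1, an RNA-binding protein that binds Igf2 mRNA, fell by 0.52 ± 0.10 (edgeR adjusted p = 0.0111) and Igf1r, the signalling receptor of both IGFs, by 0.46 ± 0.10 (0.0187). In Ctr1-null against wild type and in BCS against Ctr1-null edgeR called none of the 15. With wild type replicate 1 left out, it called 6 as higher and 5 as lower in the former, none in the latter, and 3 as higher and 5 as lower with BCS against wild type, against 17.3%, 0.972% and 31% of all genes. Igf1 had the smallest p in the former, with wild type libraries at 0.686, 2.54 and 2.95 CPM, against 0.357, 0.736 and 0.392 CPM in Ctr1-null (log2 fold change -2.05 ± 0.52, adjusted p = 0.128, and -2.47 ± 0.33, 0.00225, without wild type replicate 1). There wild type replicate 1 again lay with the null libraries. Igf1r had the smallest p in the latter (-0.30 ± 0.10, adjusted p = 0.237). Igfbp5, an IGF-binding protein, was at 37.3, 4.84 and 4.89 CPM in wild type, and 5 of the 15 were at least 2-fold higher in wild type replicate 1 than in both other wild type libraries, against 6.26% of all genes.

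**Figure D2:**
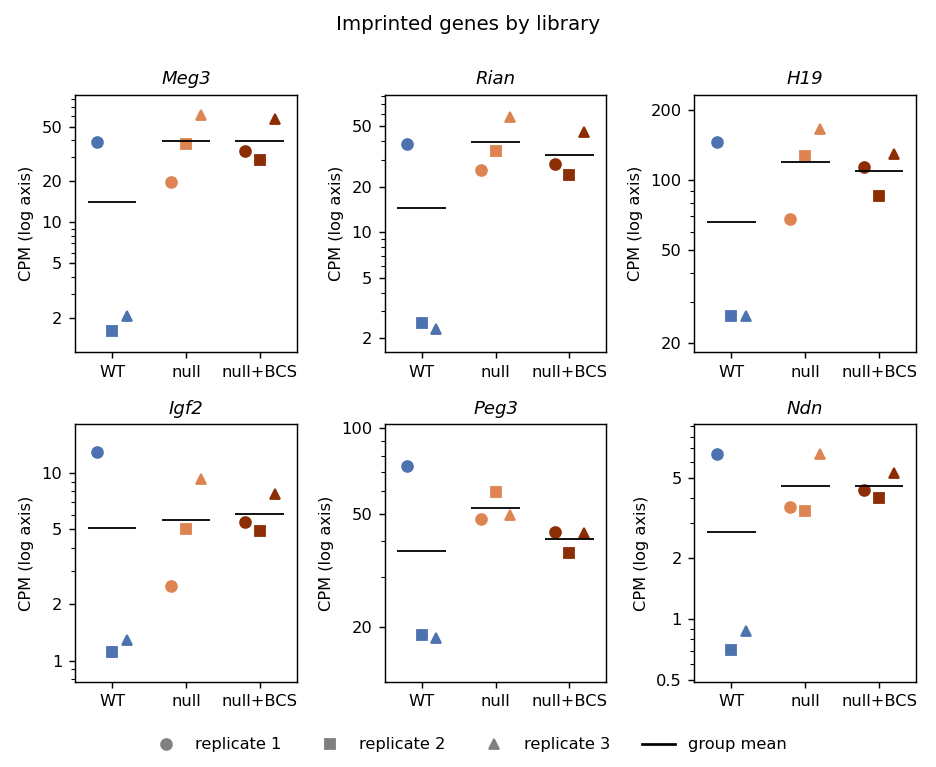
CPM (log axis) of Meg3, Rian, H19, Igf2, Peg3 and Ndn in each library, with the replicate by marker shape and the group mean as a line. Wild type replicate 1 lies among or above the null libraries in each panel, and wild type replicates 2 and 3 lie below all others.

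The Peg3 cluster on chromosome 7 holds the paternal zinc finger gene Peg3, the paternal deubiquitinase Usp29 and the maternal zinc finger gene Zim1. Peg3 (6703892 to 6730431, - strand) was at 73.7, 18.7 and 18.4 CPM in wild type, at 47.9, 59.8 and 49.6 CPM in Ctr1-null and at 43.2, 36.4 and 42.9 CPM with BCS. Usp29 was at 1.39, 0.486 and 0.297 CPM in wild type and at 0.663 to 1.01 CPM in the null libraries, and Zim1 at 1.31, 0.243 and 0.260 CPM against 0.396 to 1.11 CPM. All 3 were highest in wild type replicate 1 and lowest in wild type replicates 2 and 3. Leaving out wild type replicate 1, Peg3 had 1.50 ± 0.12 in Ctr1-null against wild type (edgeR adjusted p = 0.000584) and 1.13 ± 0.12 with BCS against wild type (0.000616), and with it 0.51 ± 0.46 (0.581) and 0.14 ± 0.46 (0.857). Usp29 was then called in both comparisons (1.18 ± 0.30, 0.0278, and 1.04 ± 0.30, 0.0277) and Zim1 in neither. All 3 Peg3 values with BCS were below all 3 in Ctr1-null, a log2 fold change of -0.36 ± 0.45 that was not called (adjusted p = 0.756).

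Peg3 and Usp29 start 163 bases apart and run away from each other, so the stretch between them is shown. It is RefSeq GRCm38.p6, chr7:6730420-6730582, + strand, 5′ to 3′, with Usp29 to its right and Peg3 to its left, and it holds none of the 3 motifs. The cAMP response element that the windows of both genes share lies past the start of Usp29.
Peg3-Usp29: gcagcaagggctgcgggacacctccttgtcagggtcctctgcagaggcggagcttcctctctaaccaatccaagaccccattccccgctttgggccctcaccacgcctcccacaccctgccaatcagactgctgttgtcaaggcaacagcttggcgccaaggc

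The Snrpn-Ndn cluster, whose human counterpart is lost in Prader-Willi syndrome, is made from the paternal copy. Ndn, a MAGE family protein called necdin (chromosome 7, 62346569 to 62350262, + strand), was at 6.55, 0.703 and 0.874 CPM in wild type, at 3.61, 3.45 and 6.57 CPM in Ctr1-null and at 4.37, 3.98 and 5.32 CPM with BCS. Peg12, of the FRAT family of WNT pathway proteins, was at 1.50, 0.189 and 0.335 CPM in wild type and at 0.644 to 1.19 CPM in the null libraries. Snrpn, which encodes the spliceosome protein SmN, was at 5.82, 9.00 and 8.55 CPM in wild type and at 5.72 to 9.92 CPM in the null libraries, so here wild type replicate 1 was the lowest of its group. Magel2 had no count in wild type and 1 count in each of 2 null libraries. Once wild type replicate 1 was left out, Ndn had 2.51 ± 0.33 in Ctr1-null against wild type (edgeR adjusted p = 0.00221) and Peg12 1.90 ± 0.35 (0.00834), against 0.74 ± 0.70 (0.601) and 0.57 ± 0.59 (0.635) with it. Against wild type with BCS, they were likewise called only without it (2.51 ± 0.33, 0.00137, and 1.52 ± 0.35, 0.0118). Peg12 is 85.9% alike to Frat1 over 2539 bases and 86.8% alike to Frat2 over 589 bases, so its counts are uncertain where reads could be split, while Frat1 itself was at 0.978 to 1.35 CPM in all 9 libraries.

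In the Peg10-Sgce cluster on chromosome 6, Peg10, a retrotransposon-derived gene needed in the placenta, was at 363, 202 and 223 CPM in wild type and at 255 to 329.9 CPM in the null libraries. Ppp1r9a, the cytoskeletal protein neurabin-1, was at 1.48, 0.406 and 0.279 CPM in wild type and at 0.757 to 1.47 CPM in the null libraries. Asb4, an ankyrin repeat protein, ran the other way, at 11.1, 20.4 and 21.2 CPM in wild type and at 9.99 to 16.0 CPM in the null libraries. Sgce, which encodes epsilon-sarcoglycan, stayed between 40.5 and 57.1 CPM. None was called with all libraries, and Asb4 with BCS against wild type came nearest (-0.69 ± 0.25, edgeR adjusted p = 0.0852). When wild type replicate 1 was left out, Peg10 (0.56 ± 0.10, 0.0072), Ppp1r9a (1.91 ± 0.36, 0.00898) and Asb4 (-0.76 ± 0.18, 0.0207) were called in Ctr1-null against wild type. In BCS against wild type the same 3 were then called (0.35 ± 0.10, 0.026, 1.58 ± 0.36, 0.0113, and -0.94 ± 0.18, 0.0051), and so was Sgce (0.33 ± 0.10, 0.0393).

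Within the wild type group, wild type replicate 1 was at least 2-fold above both replicates 2 and 3 in 13 of the 36 members tested (36.1%), against 6.26% of all genes tested. These were Meg3, Rian, Mirg, Dlk1, H19, Igf2, Peg3, Usp29, Zim1, Ppp1r9a, Plagl1, Ndn and Peg12. By the copy known to be expressed they were of both kinds, 6 of 11 tested that are maternally expressed and 7 of 20 that are paternally expressed. The reverse, at most 1 in 2 of both, held for 1 member, Slc22a18, at 3 counts against 8 and 10, and for 1.73% of all genes. Replicates 2 and 3 differed by 2-fold or more in 1 member, Dlk1, at 1 and 5 counts, against 5.82% of all genes. Wild type replicates 2 and 3 were at least 2-fold below each of the other 7 libraries in 6 members (16.7%), Meg3, Rian, Mirg, Dlk1, H19 and Ndn, against 2.23% of all genes. These shares describe 3 libraries and carry no test. Members were chosen with earlier results of these data known, and several share a cluster and are not independent. The gap to all genes is thus a description only.

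Other genes moved with these libraries. Pdgfra, a receptor of fibroblast progenitors that was among the fibroblast markers, was at 65.3, 6.11 and 6.62 CPM across the 3 wild type libraries in order and at 36.2 to 95.0 CPM in the null ones. Dcn, the matrix protein decorin and also on the list of other imprinted genes, had 111, 2 and 2 counts across wild type and 6 to 76 in the null libraries. Both were picked from the fibroblast list after their values were seen, and they were the 2 of its 10 tested genes at least 2-fold higher in wild type replicate 1. Of its collagen genes, Col1a2 was at 1780, 2250 and 2264 CPM in wild type and 837.6 to 1524 in Ctr1-null, and Col3a1 at 109.7, 81.7 and 83.0 CPM and 11.1 to 81.6 CPM. Col1a1 overlapped between these groups (log2 fold change 0.07 ± 0.22), and with all libraries none of these collagen genes was called there. The whole list of 11 genes summed to 18520, 16480 and 17620 CPM in wild type, 15470 to 18490 in Ctr1-null and 16370 to 19850 with BCS. Epithelial markers ran the other way, with sums of 2.58, 8.05 and 9.89 CPM across the 3 wild type libraries and of 1.198 to 4.005 CPM across the null ones. Neural progenitor and glia markers summed to 244, 156 and 162 CPM across the wild type libraries, macrophage and blood markers to 12.5, 5.62 and 6.12 CPM, bone and cartilage markers to 135, 95.9 and 95.7 CPM and endothelial markers to 38.1, 27.8 and 27.5 CPM, all highest in wild type replicate 1. The part of these genes, or of what sets the wild type libraries apart, in the values of the imprinted genes was not tested.

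Slc22a18, a maternally expressed transporter of the Kcnq1 cluster (chromosome 7, 143473736 to 143499334, + strand), rose in Ctr1-null cells with BCS against wild type. It was at 0.0624, 0.216 and 0.186 CPM in wild type (3, 8 and 10 counts), at 0.397, 0.717 and 0.723 CPM in Ctr1-null and at 1.46, 0.757 and 1.39 CPM with BCS. The groups did not overlap in any of the 3 comparisons, at low counts throughout. The log2 fold change was 2.96 ± 0.45 with BCS against wild type (edgeR adjusted p = 0.00658), and 1.99 ± 0.47 in Ctr1-null against wild type (0.11) and 0.97 ± 0.38 with BCS against Ctr1-null (0.282), neither called. Here wild type replicate 1 was not what separated the groups, and without it the values against wild type were 2.57 ± 0.43 (adjusted p = 0.00332) and 1.60 ± 0.45, the latter then called too (0.0392).

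The other genes of the Kcnq1 cluster did not follow it. Kcnq1ot1, the paternal noncoding RNA that silences the cluster, stayed between 8.40 and 13.9 CPM, and its reads cannot be told apart from those of Kcnq1 on the other strand, which was at 0.0182 to 0.186 CPM. Cdkn1c, the growth-limiting kinase inhibitor p57, was at 25.6, 14.4 and 15.2 CPM in wild type and at 11.1 to 18.5 CPM in the null libraries. Phlda2, which limits placental growth, had 3 to 14 counts a library and Ascl2, a trophoblast factor, 0 to 18, both below the filter with all libraries. None of those tested was called in any comparison, with or without wild type replicate 1.

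Mest, a paternally expressed hydrolase of the endoplasmic reticulum that rises when fat tissue grows, was highest with BCS. It was at 35.2, 23.5 and 22.5 CPM in wild type, at 14.9, 47.8 and 50.6 CPM in Ctr1-null and at 61.3, 71.4 and 92.2 CPM with BCS (chromosome 6, 30723547 to 30748465, + strand). The BCS libraries lay above all others, and Ctr1-null replicate 1 was the lowest of the 9. With BCS against wild type the log2 fold change was 1.47 ± 0.39 (edgeR adjusted p = 0.0346). The call was lost without wild type replicate 2 (0.119) or 3 (0.128) and without BCS replicate 1 (0.0711), 2 (0.067) or 3 (0.125), at log2 fold changes of 1.29 to 1.60, and kept without wild type replicate 1 (1.70 ± 0.44, 0.0182). With BCS against Ctr1-null it was 0.99 ± 0.39 and not called (0.285). Copg2, a coat protein gene that overlaps Mest on the other strand, was at 43.6, 61.7 and 61.3 CPM in wild type. It was at 50.4 to 56.6 CPM in Ctr1-null and at 63.5 to 76.8 CPM with BCS (0.34 ± 0.13 with BCS against wild type, adjusted p = 0.115).

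The start of the imprinted Mest transcript lies inside a CpG-rich stretch, and the 250 bases before it are shown because they hold the hexamer in 2 places and 14 CpG. They are RefSeq GRCm38.p6, chr6:30737800-30738049, + strand, 5′ to 3′, with TGCCGC on the other strand in capitals.
Mest upstream: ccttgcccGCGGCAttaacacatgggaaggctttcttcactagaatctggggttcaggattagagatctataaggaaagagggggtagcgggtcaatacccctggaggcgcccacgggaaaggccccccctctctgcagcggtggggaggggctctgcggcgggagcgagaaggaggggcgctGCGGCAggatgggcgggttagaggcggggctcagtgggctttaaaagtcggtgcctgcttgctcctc

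Nnat fell, and its 3 wild type libraries were alike. Nnat encodes neuronatin, a small membrane protein made from the paternal copy (chromosome 2, 157560078 to 157562522, + strand), and was at 8.65, 8.001 and 8.40 CPM in wild type, at 3.97, 3.93 and 4.77 CPM in Ctr1-null and at 2.93, 2.46 and 2.53 CPM with BCS. The 3 groups did not overlap. The log2 fold change was -1.66 ± 0.14 with BCS against wild type (edgeR adjusted p = 0.00139), -0.98 ± 0.14 in Ctr1-null against wild type (0.0592) and -0.68 ± 0.14 with BCS against Ctr1-null (0.0952). The value in Ctr1-null against wild type was -0.96 ± 0.15 and called (0.00375) with wild type replicate 1 left out. DESeq2 called all 3 (-1.68 ± 0.15, -0.997 ± 0.143 and -0.69 ± 0.15, adjusted p = 5.19e-26, 7.05e-09 and 0.00095). Blcap, the gene in whose intron Nnat lies on the other strand, stayed between 42.0 and 50.5 CPM and was not called in any comparison.

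Impact and H13 moved little but steadily. Impact, which blocks activation of the amino acid sensor GCN2, was at 88.9, 81.6 and 77.7 CPM in wild type, at 104, 95.3 and 93.3 CPM in Ctr1-null and at 119, 117 and 115 CPM with BCS (chromosome 18, 12955852 to 12992950, + strand). Its groups did not overlap in any comparison, and with BCS against wild type it rose by a log2 fold change of 0.50 ± 0.07 (edgeR adjusted p = 0.00651). H13, which encodes signal peptide peptidase (chromosome 2, 152669461 to 152708670, + strand), was at 167, 159 and 167 CPM in wild type, at 151, 146 and 158 CPM in Ctr1-null and at 131, 122 and 125 CPM with BCS. It fell by 0.38 ± 0.07 with BCS against wild type (adjusted p = 0.00926). With BCS against Ctr1-null, Impact had 0.26 ± 0.07 (0.184) and H13 -0.27 ± 0.07 (0.138), not called, and DESeq2 called H13 there (-0.28 ± 0.07, 0.00357). With wild type replicate 1 left out, the calls with BCS against wild type stood at 0.54 ± 0.07 for Impact (0.00155), -0.38 ± 0.07 for H13 (0.00501) and -1.64 ± 0.15 for Nnat (0.000377), and Impact was also called in Ctr1-null against wild type (0.29 ± 0.07, 0.0286, against 0.24 ± 0.07, 0.167, with it). Mcts2, a paternal retrogene inside an intron of H13 and on its strand, stayed between 9.46 and 11.7 CPM. Mcts2 is 84.0% alike to its parent Mcts1 over 674 bases, and Mcts1 stayed between 22.1 and 25.3 CPM.

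**Figure D3:**
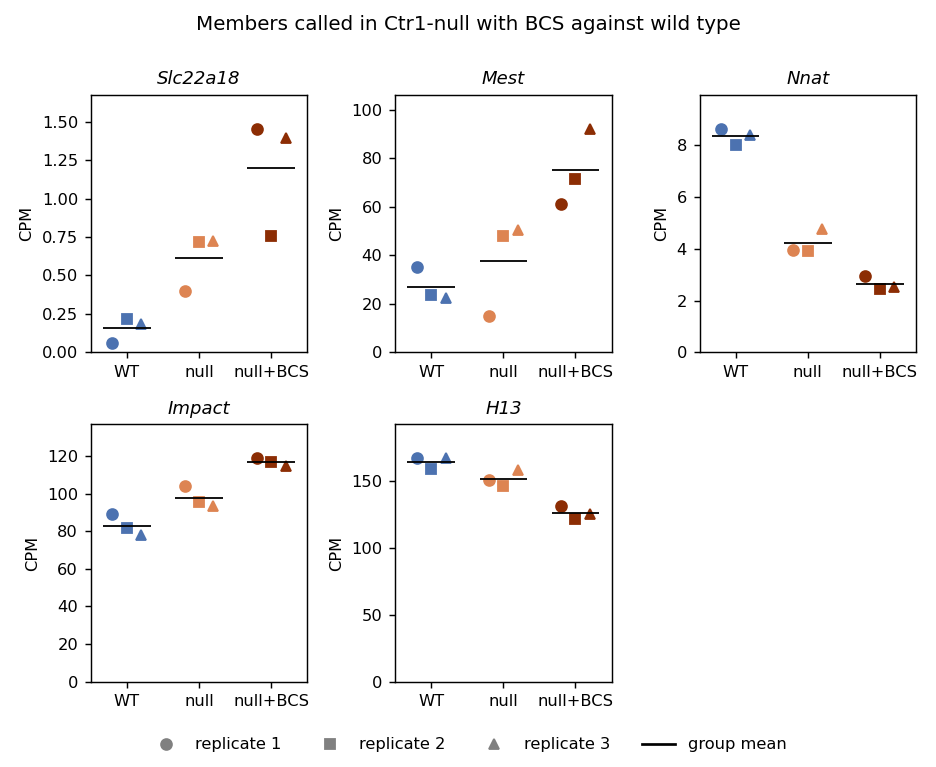
CPM (linear axis from 0) of the 5 members called in Ctr1-null with BCS against wild type, in each library, with the replicate by marker shape and the group mean as a line. Slc22a18, Mest and Impact are higher and Nnat and H13 lower with BCS than in every wild type library, and Ctr1-null replicate 1 is the lowest point for Mest.

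Zrsr1, a paternal retrogene of the splicing factor gene Zrsr2, was set by 1 library. It had 40486 counts (736.8 CPM) in BCS replicate 1 and 43.8 and 25.8 CPM in BCS replicates 2 and 3, against 44.8, 22.2 and 34.6 CPM in wild type and 16.0, 40.9 and 69.0 CPM in Ctr1-null. The log2 fold change with BCS against Ctr1-null was 2.68 ± 1.11 (edgeR adjusted p = 0.305) and without BCS replicate 1 it was -0.27 (0.887). The annotated Zrsr1 transcript of 4492 bases holds a run of 38 C from base 1173. In the transcripts of all genes a run of 31 or more C or G was found in 4 gene rows, Zrsr1, Gm26822, Gm19220 and Grip2, genes looked at after the Zrsr1 values were seen. All 4 were highest in BCS replicate 1, at 10.7, 7.8, 4.27 and 3.46 times the highest other library, next highest in Ctr1-null replicate 3 and lowest in Ctr1-null replicate 1. Of 5 genes at 5 CPM or more and at least 5-fold above every other library in BCS replicate 1, 2 were of these 4. Zrsr2, which is 80.4% alike to Zrsr1 over 1123 bases, stayed between 24.2 and 35.0 CPM, and Commd1, whose intron holds Zrsr1 on the other strand, between 19.5 and 26.6 CPM. Whether such runs bear on the count was not tested.

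**Figure D4:**
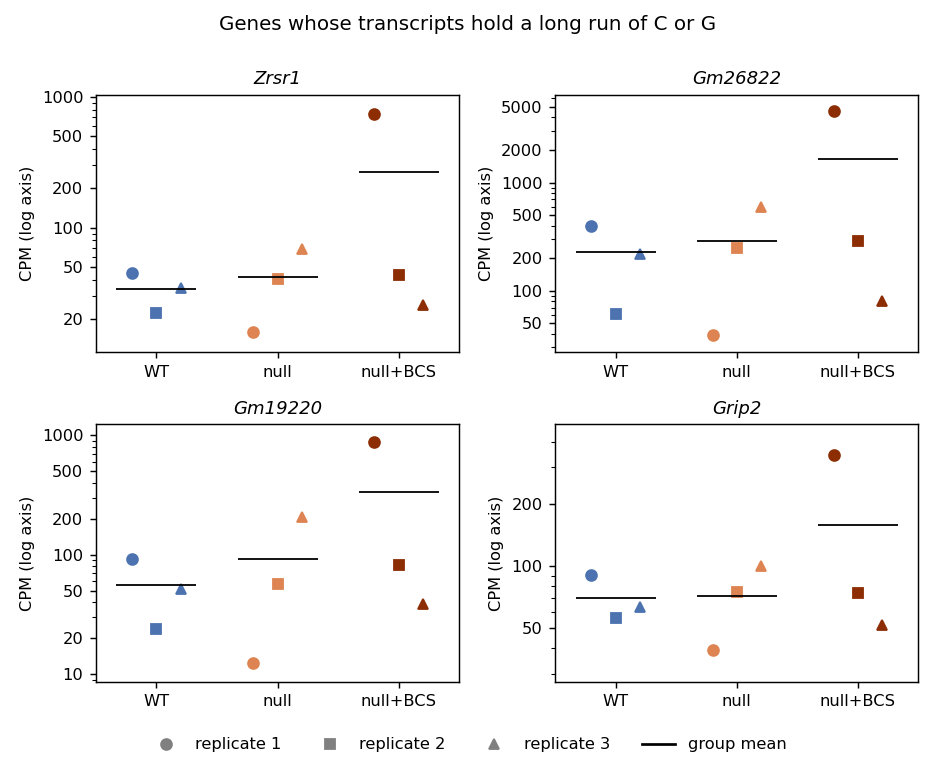
CPM (log axis) by library of the 4 gene rows whose annotated transcripts hold a run of 31 or more C or G, with the replicate by marker shape and the group mean as a line. BCS replicate 1 is the highest and Ctr1-null replicate 1 the lowest point in each panel.

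Gnas, the alpha subunit of the stimulatory G protein, was the most abundant member per length at 96.8 CPM per kilobase of exon, ahead of Grb10 at 52.0, Peg10 at 42.3, H19 at 40.1 and Igf2r at 37.2, as means over the 9 libraries. The order below Gnas differed between groups. H19 was below Igf2r in wild type (26.8 and 34.9) and above Peg10 in Ctr1-null (48.8 and 46.9) and with BCS (44.6 and 40.7). Slc38a4 was above Peg10 in wild type (40.5 and 39.4) and above Igf2r in Ctr1-null (37.3 and 35.7). Zrsr1 was above Grb10 with BCS (59.8 and 52.4), a mean set by BCS replicate 1. Gnas stayed between 981 and 1197 CPM, and its BCS libraries lay above its wild type libraries (0.16 ± 0.08, edgeR adjusted p = 0.178). Peg13, a noncoding RNA within Trappc9, stayed between 12.8 and 15.1 CPM. Trappc9, a trafficking complex subunit, was at 26.7, 36.8 and 38.6 CPM in wild type, 30.2 to 33.6 in Ctr1-null and 35.6 to 39.9 with BCS. Inpp5f, a phosphoinositide phosphatase, was at 29.5, 26.6 and 25.8 CPM in wild type and at 32.0 to 33.8 CPM with BCS (0.27 ± 0.08, adjusted p = 0.0517), and it was called by DESeq2 (0.0327) and without wild type replicate 1 (0.32 ± 0.08, 0.0142). Slc38a4, an amino acid transporter, was at 188, 163 and 167 CPM in wild type and at 119 to 149 CPM with BCS (-0.39 ± 0.12, adjusted p = 0.0628), and it was called by DESeq2 (0.015) and not without wild type replicate 1 (0.0846). Nap1l5, a retrogene of the nucleosome assembly family, had 2 to 16 counts a library. Herc3, whose intron holds Nap1l5 on the other strand, was at 36.7, 30.6 and 31.1 CPM in wild type and at 20.4, 19.2 and 19.5 CPM with BCS, a fall of 0.73 ± 0.13 (adjusted p = 0.00997).

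In Ctr1-null against wild type, the comparison of cells without and with the copper importer, edgeR called none of the 36 members, and it called 0.0109% of all 18408 genes. At an unadjusted p under 0.05 stood 3 members (8.33%), Slc22a18, Nnat and Impact, against 17.6% of all genes. Of the 36, 26 had positive and 10 negative log2 fold changes, with a median of 0.13 against 0.005 over all genes. DESeq2 called 2 of 34 members, Slc22a18 as higher and Nnat as lower, and 6.49% of all genes. With wild type replicate 1 left out, edgeR called 17 of 37 members (45.9%), 15 higher and 2 lower, against 17.3% of all genes. Ascl2, below the filter with all libraries, passed it in this setting and was not called. The higher ones were Meg3, Rian, Mirg, Dlk1, H19, Igf2, Slc22a18, Peg3, Usp29, Peg10, Ppp1r9a, Plagl1, Ndn, Peg12 and Impact, and the lower ones Asb4 and Nnat. Both fold changes and errors moved with that library, as for Meg3 from 1.48 ± 0.98 to 4.42 ± 0.55. Groups that did not overlap were Slc22a18 and Impact on the higher side, against 9.49% of all genes, and Nnat and H13 on the lower side, against 8.62%.

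With BCS against Ctr1-null, the comparison of chelator within null cells, edgeR called none of the 36 members, and 0.0543% of all genes. At an unadjusted p under 0.05 stood 6 members (16.7%), Slc22a18, Mest, Zrsr1, Nnat, Impact and H13, against 14.7% of all genes. The members' median was -0.02, with 17 positive and 19 negative. DESeq2 called 2 of 34, Nnat and H13, both lower, and 4.25% of all genes. Without wild type replicate 1, which is in neither group but shares the fit, edgeR called 0 of 37 members and 0.972% of all genes, with 13 members (35.1%) and 19.9% of all genes at an unadjusted p under 0.05. The groups did not overlap for Igf2r, Slc22a18, Mest, Impact, Inpp5f and Trappc9 on the higher side (16.7%, against 13.4% of all genes) and for Peg3, Nnat and H13 on the lower side (8.33%, against 10.9%).

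With BCS against wild type, by design the widest gap in access to copper, edgeR called 5 of 36 members (13.9%), and 15.8% of all genes. The members were thus called about as often as other genes. Slc22a18, Mest and Impact rose, and Nnat and H13 fell. The members' median was 0.18, with 26 positive and 10 negative, against 0.01 over all genes. DESeq2 called 9 of 35, the same 5 and Zrsr1 and Inpp5f as higher and Asb4 and Slc38a4 as lower, and 21.3% of all genes. With library size as the only scaling, edgeR called 7 of 36, Gnas and Inpp5f added, and 15.5% of all genes. That setting shifted the median of all genes to 0.10 and the share of higher calls over all genes from 54.0% to 72.5%. When it left out wild type replicate 1, edgeR called 22 of 37 (59.5%), 19 higher and 3 lower, against 31% of all genes. The groups did not overlap for Slc22a18, Mest, Gnas, Impact and Inpp5f on the higher side (13.9%, against 20% of all genes) and for Nnat, Slc38a4 and H13 on the lower side (8.33%, against 17.1%). The 3 comparisons share libraries, so their values are not independent of each other.

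**Figure D5:**
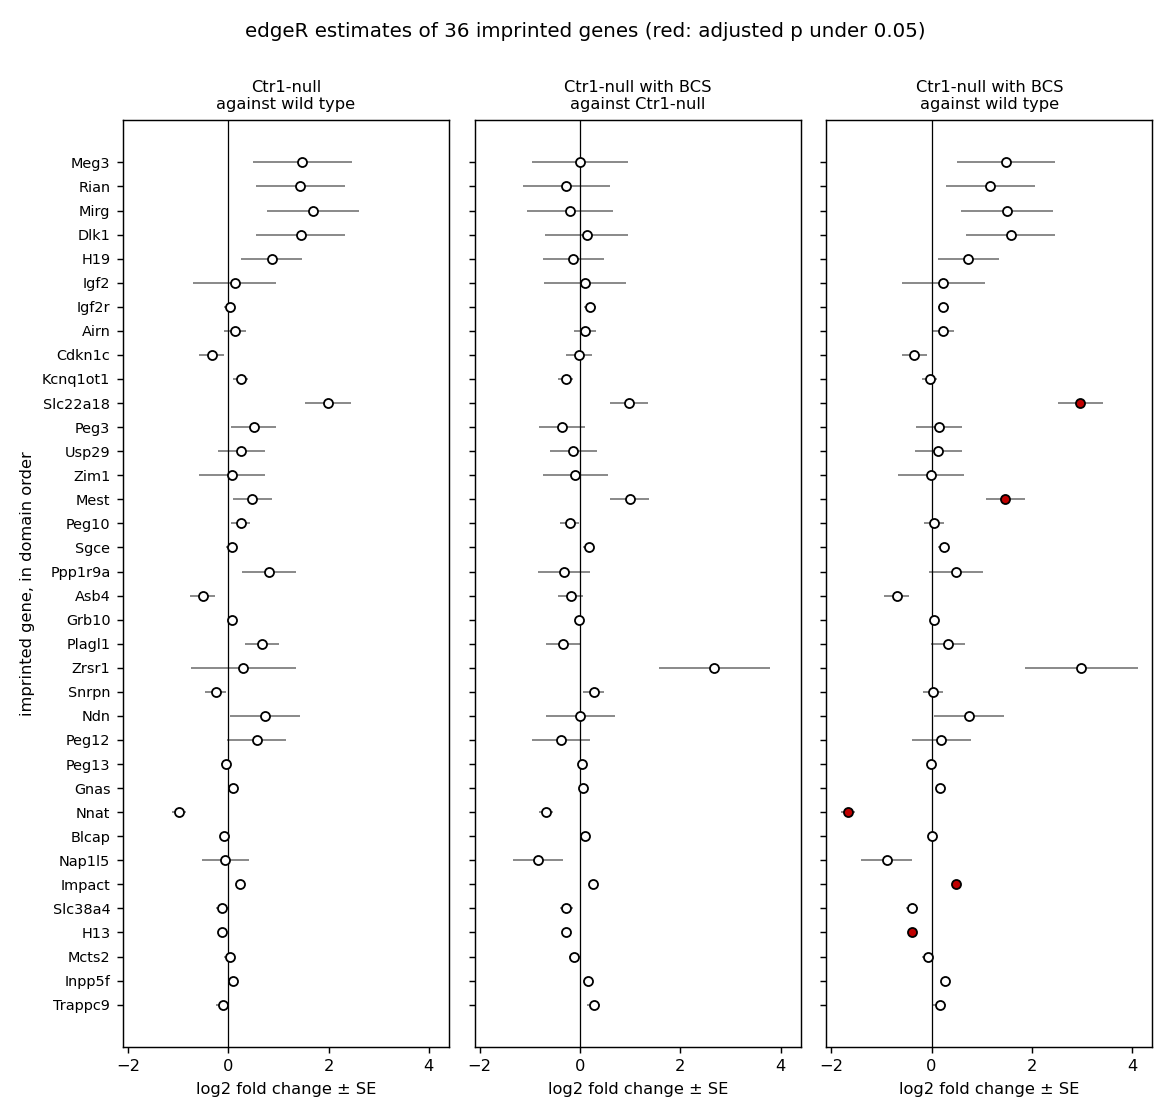
The edgeR log2 fold changes with SE of the 36 members tested in the 3 comparisons, in domain order, with red points at an adjusted p under 0.05. Zrsr1 has the longest error bar in each panel, long ones also mark Meg3, Rian, Mirg, Dlk1, Igf2 and Ndn in all panels, and the 5 red points stand in the panel of BCS against wild type.

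Further imprinted genes outside the 40 and the genes that keep imprints were looked at beside the members. Of 36 such other imprinted genes, 21 were tested, none was called in Ctr1-null against wild type, where Dio3 had the smallest p (1.38 ± 0.53, edgeR adjusted p = 0.235), or with BCS against Ctr1-null, where Herc3 had it (-0.71 ± 0.13, 0.0879). With BCS against wild type 3 fell, among them Herc3 and Jade1 (-0.57 ± 0.12, 0.0156), where 15.8% of all genes were called. With wild type replicate 1 left out, 22 were tested, of which 4 rose and 1 fell in Ctr1-null against wild type, 1 fell with BCS against Ctr1-null, and 4 rose and 3 fell with BCS against wild type, against 17.3%, 0.972% and 31% of all genes. Dio3 was among those called in Ctr1-null (2.22 ± 0.45, 0.0121), and Herc3 was the one called with BCS against Ctr1-null (-0.72 ± 0.12, 0.0401). Of the 21, 5 were at least 2-fold higher in wild type replicate 1 than in both other wild type libraries, against 6.26% of all genes. Of 9 host genes and near copies, 8 were tested and 1, Herc3, was called, with BCS against wild type. With wild type replicate 1 left out, 1 fell in Ctr1-null against wild type (Zrsr2), 1 with BCS against Ctr1-null (Herc3) and 2 with BCS against wild type (both of these).

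Imprints are kept by DNA methyltransferases, by UHRF1, which brings DNMT1 to replicating DNA, and by ZFP57 with TRIM28 and SETDB1, while TET enzymes oxidise methylated cytosine. Of 22 such genes, 20 were tested, and none was at least 2-fold higher in wild type replicate 1 than in both other wild type libraries. Dnmt1 stayed between 328 and 432 CPM, and Zfp57 was at 49.3, 32.5 and 34.1 CPM in wild type and 32.1 to 45.4 CPM in the null libraries. With BCS against wild type 1 rose, Tet1 (1.27 ± 0.30, edgeR adjusted p = 0.0235), and 5 fell, among them Uhrf1 (-0.44 ± 0.09, 0.0124) and Tet3 (-0.40 ± 0.10, 0.029), where 15.8% of all genes were called. Tet1 was at 4.10, 2.57 and 2.03 CPM in wild type and at 6.61, 5.49 and 8.94 CPM with BCS. In the other comparisons none of the 20 was called, Setdb1 (-0.26 ± 0.07, adjusted p = 0.129) and Uhrf1 (-0.28 ± 0.08, 0.202) having the smallest p. With wild type replicate 1 left out, 1 rose and 1 fell in Ctr1-null against wild type, and 2 rose and 6 fell with BCS against wild type, against 17.3% and 31% of all genes. Tet1 and Uhrf1 then had 1.61 ± 0.28 (0.00389) and -0.51 ± 0.08 (0.00299) with BCS against wild type, and Setdb1 was called in Ctr1-null (-0.28 ± 0.07, 0.0244). DNA methylation was not measured.

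Fat cell markers moved with the groups. The list of 7 summed to 30.3, 24.5 and 24.4 CPM in wild type, 58.8 to 85.5 CPM in Ctr1-null and 67.4 to 81.8 CPM with BCS. Pparg, its leading regulator, rose in Ctr1-null against wild type (1.37 ± 0.15, edgeR adjusted p = 0.0451), and Cebpa (2.47 ± 0.68, 0.0383) and Fabp4 (2.15 ± 0.29, 0.0056) with BCS against wild type. Cebpa also split the wild type libraries, at 4.93, 0.595 and 0.744 CPM. Ctr1-null replicate 1 had the highest sum and the lowest Mest value. Of the 4 tested, edgeR called 1 in Ctr1-null and 3 with BCS against wild type, where it called 0.0109% and 15.8% of all genes. It called all 4 in both without wild type replicate 1, against 17.3% and 31% of all genes. Muscle markers summed to 1.51 to 2.39, 2.83 to 5.78 and 4.49 to 9.56 CPM in the 3 groups in the same order. Only 3 of these 8 genes were tested, and their median log2 fold change with BCS against wild type was 0.09. Des was the 1 called there, as higher (2.68 ± 0.47, adjusted p = 0.00952). Without wild type replicate 1, 2 were called as higher in Ctr1-null and 1 with BCS against wild type, again against 17.3% and 31% of all genes. In Ctr1-null and with BCS, macrophage and blood markers summed to 9.38 to 17.6 and 12.5 to 22.2 CPM, and neural progenitor and glia markers to 173 to 202 and 121 to 146 CPM. Endothelial markers summed to 26.1 to 33.9 and 23.8 to 32.0 CPM, and bone and cartilage markers to 125 to 208 and 151 to 161 CPM. Pluripotent and germ cell markers reached 1.27 CPM and Schwann, trophoblast and yolk sac markers 0.478 CPM in sum. Myod1, Sox10, Adgre1, Hbb-bs, Dppa3 and Tpbpa were at 0 counts in all 9 libraries. The part of such cells in the members' values was not tested.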

How the data were processed

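RNA of 9 fibroblast libraries (3 wild type, 3 Ctr1-null, 3 Ctr1-null with BCS) was measured. Estimated counts per gene, in whole numbers and not normalised, came from the table the authors deposited. A further table deposited by the authors holds scaled signal values and served only to recover their factors for an alternative. FastQC, STAR, Salmon, DESeq2 and GRCm38 stand without versions in the submitters' processing notes. The labels name an Illumina TruSeq RNA kit, a kind that does not mark strand. Of 52661 gene rows, 52566 were matched to symbols in the GENCODE M21 annotation. Genes passed filterByExpr (minimum count 10, minimum total 15), were scaled by TMM and fitted in edgeR 4.0.16 (R 4.3.3), with 3 groups, all 9 libraries and 6 residual degrees of freedom. The common biological coefficient of variation was 0.169. SE was taken as the absolute log2 fold change over the root of F, and CPM used TMM-scaled totals, except for the limit of 3 counts.

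The members and lists were chosen with earlier results of these data known. Named genes are the 40 members, Slc31a1, hosts and near copies of members and, from each list, up to 2 called genes in each direction or the gene with the smallest p. Begain, Igfbp5, Pdgfra, Dcn, Col1a2, Col3a1, Dnmt1, Zfp57, Gm26822, Gm19220 and Grip2 were chosen after their values were seen, and so was the cAMP response element. There were 4 gene lists and 10 cell type lists, given by counts and sums. Alternatives were DESeq2 1.42.0, other scalings and filters, the authors' factors, fits of the compared groups alone, a replicate block and leaving out each library. In a simulation of Ctr1-null against wild type, edgeR called 60 of 101 genes changed 2-fold, 88 of 95 changed 4-fold and 12 of 17844 unchanged. The simulation drew each gene on its own, without a shift of many genes in 1 library as in wild type replicate 1. These rates therefore need not hold for the real libraries. Replicates of every group differed beyond counting noise. Figures used matplotlib 3.10.9 in Python 3.11.15.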

Additional observations from a re-analysis of the deposited data

How the results depend on the processing

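Of 1824 values of single members under the alternatives, 1761 kept their side of the threshold, 86 of them uncalled values that changed sign by less than their SE, while 53 gained a call, 34 of them without wild type replicate 1, and 6, all of Mest, lost it. Slc22a18, Nnat, Impact and H13 kept their calls with BCS against wild type under every alternative run (highest adjusted p 0.0366, 0.0132, 0.037 and 0.049). The sign reversed for Airn in Ctr1-null against wild type without Ctr1-null replicate 2 (-0.12, in a range of -0.12 to 0.31 when 1 library was left out), for Zrsr1 with BCS against Ctr1-null without BCS replicate 1 (-0.27, range -0.27 to 3.24), and with BCS against wild type for Zim1 without wild type replicate 1 (1.24, range -0.40 to 1.24) and for Peg13 with library size only (0.10), none called. In Ctr1-null against wild type, the members called were 2 with no filter and with DESeq2 and 0 to 17 when 1 library was left out. The genes called over all were 2, 4 under DESeq2's size factors, library size, the authors' factors and a stricter filter, 1 with only the groups compared, 265 with no filter, 991 with DESeq2 and 1 to 3254 when 1 library was left out. With BCS against Ctr1-null, the members called were 2 with DESeq2, and the genes called were 10, 114 with no filter, 621 with DESeq2 and 0 to 183 when 1 library was left out, where the members called stayed at 0 to 0. With BCS against wild type, the members called were 5, 8 with no filter, 9 with DESeq2 and 4 to 22 when 1 library was left out, and the genes called were 2916 and 568 to 5840 when 1 library was left out, each library but Ctr1-null replicates 1 to 3 and BCS replicate 2 moving it by over 1.5 times. Replicate numbers did not pair the libraries, with same-number correlations of -0.319 to 0.275, and a replicate block called 1, 2 and 1543 genes in the 3 comparisons and ended the call of Mest (adjusted p 0.0731). The cause of these changes was not tested. Depth limits Rtl1, Phlda2, Ascl2, Magel2, Nap1l5, Slc22a18, Mirg, Dlk1, Usp29, Zim1, Ppp1r9a and Peg12, with under 20 counts in at least 2 wild type libraries, and Mirg, Dlk1, Usp29, Ppp1r9a and Peg12 are among the calls gained without wild type replicate 1.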
